A study of Mus musculus with 30 samples.

Results

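The enzymes that carry squalene epoxide through lanosterol to cholesterol were followed in mouse liver after carbon black had been placed in the airways. They are 9 genes, Lss, Cyp51, Tm7sf2, Msmo1, Nsdhl, Hsd17b7, Ebp, Sc5d and Dhcr7, found on the arrays as every probe whose RefSeq transcript belongs to a member. These were 16 probes, out of 23607 probes and 12188 named genes with a usable signal. Exposed mice had received 0.162 mg of Printex 90, a carbon black of nanoparticle size, as 40 µl of a sonicated suspension in 0.9% NaCl water with 10% acellular lavage fluid of the same strain, pushed in with 150 µl of air. The treatment of the control mice is labelled only as none, so whether they received the vehicle is not given in the sources used here. All animals were female C57BL/6 mice obtained at 5 to 6 weeks of age and carried no other treatment in the labels. Liver RNA of 14 exposed and 16 control mice was measured, with 1 array per mouse, whereas the design text names 6 mice for each treatment. Each array held liver RNA in the red dye Cy5 and a purchased universal mouse reference RNA in the green dye Cy3. All values below are log2 ratios of Cy5 over Cy3, so a difference of 1 is a doubling, and they show total liver RNA, in which fewer cells of a type and less RNA per cell cannot be told apart.

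Within each group the animal numbers form 3 runs separated by gaps. What distinguishes a run, and the time between instillation and sampling, are not given in the labels. Exposed run 1 held 4 mice (176, 177, 179 and 180), exposed run 2 held 5 (193 to 197) and exposed run 3 held 5 (212 to 216). Control runs 1, 2 and 3 held 6, 5 and 5 mice with numbers from 547 to 600. No exposed run was matched to a control run, and the main comparison sets each exposed run against the mean of the 3 control runs.

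Cholesterol is built in the endoplasmic reticulum from acetyl units. Lanosterol synthase folds the straight chain of squalene epoxide into the first sterol, and the later enzymes strip methyl groups from its rings and move or remove ring double bonds. Liver is a main site of this synthesis, and the genes are known targets of SREBP-2, a transcription factor held in the membrane while sterols are plentiful and released when they run low. Its sites lie near gene starts, often close to CCAAT boxes bound by NF-Y and GC-rich boxes bound by Sp1.

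RefSeq promoter windows of build GRCm38.p6, with the 250 bases before an annotated start, were available for all 9 genes. They are shown for Lss and Cyp51, which differed most in exposed run 1, for Hsd17b7, which alone passed in exposed run 3, and for Tm7sf2, which passed in no run. Capitals mark CCAAT on either strand (its reverse complement is ATTGG) and TCACCTCA on either strand, a spelling of the sterol regulatory element to which SREBP factors bind. The last 40 bases of the window of Lss and the last 37 of that of Hsd17b7 lie inside the span that the RefSeq gene table gives the gene, and are not shown. The sequences printed are chr10:76531355-76531564 on the + strand for Lss, chr5:4104698-4104947 on the - strand for Cyp51, chr1:169969243-169969455 on the - strand for Hsd17b7 and chr19:6067851-6068100 on the - strand for Tm7sf2, each written 5′ to 3′ towards the gene.
Lss: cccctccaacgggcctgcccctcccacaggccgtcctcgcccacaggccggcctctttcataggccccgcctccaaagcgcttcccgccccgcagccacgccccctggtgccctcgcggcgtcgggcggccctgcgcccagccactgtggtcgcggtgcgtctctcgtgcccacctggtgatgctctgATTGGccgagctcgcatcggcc
Cyp51: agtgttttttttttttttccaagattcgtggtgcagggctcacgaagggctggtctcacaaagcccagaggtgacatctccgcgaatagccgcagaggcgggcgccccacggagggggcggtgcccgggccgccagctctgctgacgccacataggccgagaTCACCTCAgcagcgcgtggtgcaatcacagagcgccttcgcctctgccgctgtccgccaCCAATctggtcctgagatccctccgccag
Hsd17b7: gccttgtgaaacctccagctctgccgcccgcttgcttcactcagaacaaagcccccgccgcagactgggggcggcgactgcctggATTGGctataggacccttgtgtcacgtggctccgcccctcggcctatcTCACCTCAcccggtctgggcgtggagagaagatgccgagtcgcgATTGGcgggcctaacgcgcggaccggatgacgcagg
Tm7sf2: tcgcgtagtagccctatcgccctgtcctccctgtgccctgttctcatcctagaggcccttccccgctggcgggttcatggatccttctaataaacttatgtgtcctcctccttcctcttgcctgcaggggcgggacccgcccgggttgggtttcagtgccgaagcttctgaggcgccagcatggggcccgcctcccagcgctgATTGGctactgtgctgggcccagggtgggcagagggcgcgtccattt
CCAAT stood in the window of all 9 genes, for Dhcr7 in at least 1 of its 3 windows, and in 33.8% of all 32851 promoter windows. GGGCGG, the GC box, was likewise found in all 9 and in 32.7% of all windows. TCACCTCA was found for 2 of the 9, beginning 88 bases before the start that the promoter table uses for Cyp51 and 117 bases before that for Hsd17b7, and in 0.947% of all windows. TCACNCCAC, another spelling of the element, was found in none of the 9 and in 1.05% of all windows. The motifs do not overlap each other in the sequences printed, both strands of the full 250 bases were searched for each, and a match describes letters and not binding.

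All 16 probes were well above background in both dyes on 30 of 30 arrays and none was saturated, so no member was lost to the filter on dim probes. Where a gene had several probes the one with the brightest mean Cy5 stands for it, and the other probes correlated with it across mice at r from 0.89 to 0.97. Median Cy5 signals ran from 104 to 196 over the arrays, and the Cy5 signal of 42.8% to 79.2% of probes exceeded background. By run, the middle array had a median Cy5 signal of 110, 141 and 127 in exposed runs 1, 2 and 3. It was 116, 139 and 118 in control runs 1, 2 and 3. The middle share of probes above background was 52.4%, 62.3% and 58.6% in the exposed runs and 53.2%, 62% and 53.4% in the control runs. Controls lay at positions 1 and 2 of a slide and exposed mice at positions 3 and 4, so position and exposure cannot be told apart. Run 1 mice always came first in a pair of positions and run 3 mice last. In the reference channel 0 of the 9 genes and 0 of 23607 probes differed between exposed and control arrays (limma, adjusted p), 0% being the background. At an unadjusted p under 0.05 it also held 0 of the 9, against 6.75% of all probes. Of the hepatocyte markers 6 of 6 were measured, and their mean log2 ratio ran from 5.06 to 5.24 in exposed run 1, from 4.63 to 5.69 in exposed runs 2 and 3 and from 4.66 to 6.09 in controls. Among 6 measured Kupffer cell, 3 neutrophil, 5 endothelial, 4 stellate, 4 bile duct and 4 lymphocyte markers 0 passed in exposed run 1, and 1 hepatocyte marker was lower there. Over all probes 1.6% were higher and 3.19% lower there, so counts over so few markers tell little about cell types. Of the neutrophil markers Elane was well above background on 0 arrays.

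Over all 14 exposed mice none of the 9 genes passed the test against the 16 controls. The moderated test of limma called 4 of 23607 probes at an adjusted p under 0.05, or 0.0169%. At an unadjusted p under 0.05, 5 of the 9 passed, against 12.2% of all probes. Lss averaged 1.88 ± 0.57 in exposed mice and 1.21 ± 0.42 in control mice (SD, n = 14 and 16), a difference of 0.65 ± 0.16 (SE; limma adjusted p = 0.128). Hsd17b7 had the next smallest p, with a difference of 0.42 ± 0.12 (limma adjusted p = 0.146). Msmo1 differed by 0.47, Cyp51 by 0.38, Nsdhl by 0.26, Sc5d by 0.14, Dhcr7 by 0.13, Tm7sf2 by 0.04 and Ebp by -0.08, all with adjusted p of at least 0.222. The median of the 9 differences was 0.26, beside 0.01 over all probes tested. A second fit gave each of the 6 runs its own mean and weighted the runs equally. This takes differences between runs out of the error, and the SE of Lss was 0.13. In that fit Lss (0.70, limma adjusted p = 0.0201), Cyp51 (0.45, 0.0474) and Hsd17b7 (0.43, 0.0483) passed, where 0.275% of all probes did. Another Cyp51 probe did not pass there (0.49, limma adjusted p = 0.0658), and a further one did (0.48, 0.0474). In the fit of group means without the mice of exposed run 1, 0 of the 9 passed, where 0.157% of all probes did.

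Each exposed run was then set against the mean of the control runs. In exposed run 1, 5 of the 9 genes were higher than in the controls and none was lower, where 1.6% of all probes were higher and 3.19% lower. Higher probes were 33.4% of all calls there, against 73.6% with median centring of the arrays, 49.4% with the processed signals and 49.8% in the authors' deposited table, and under each of these scalings 6 members were higher and none was lower. The 5 were Lss, Cyp51, Msmo1, Nsdhl and Hsd17b7. Tm7sf2, Ebp, Sc5d and Dhcr7 did not pass. The median of the 9 differences was 0.59, beside -0.01 over all probes tested.

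**Figure D1:**
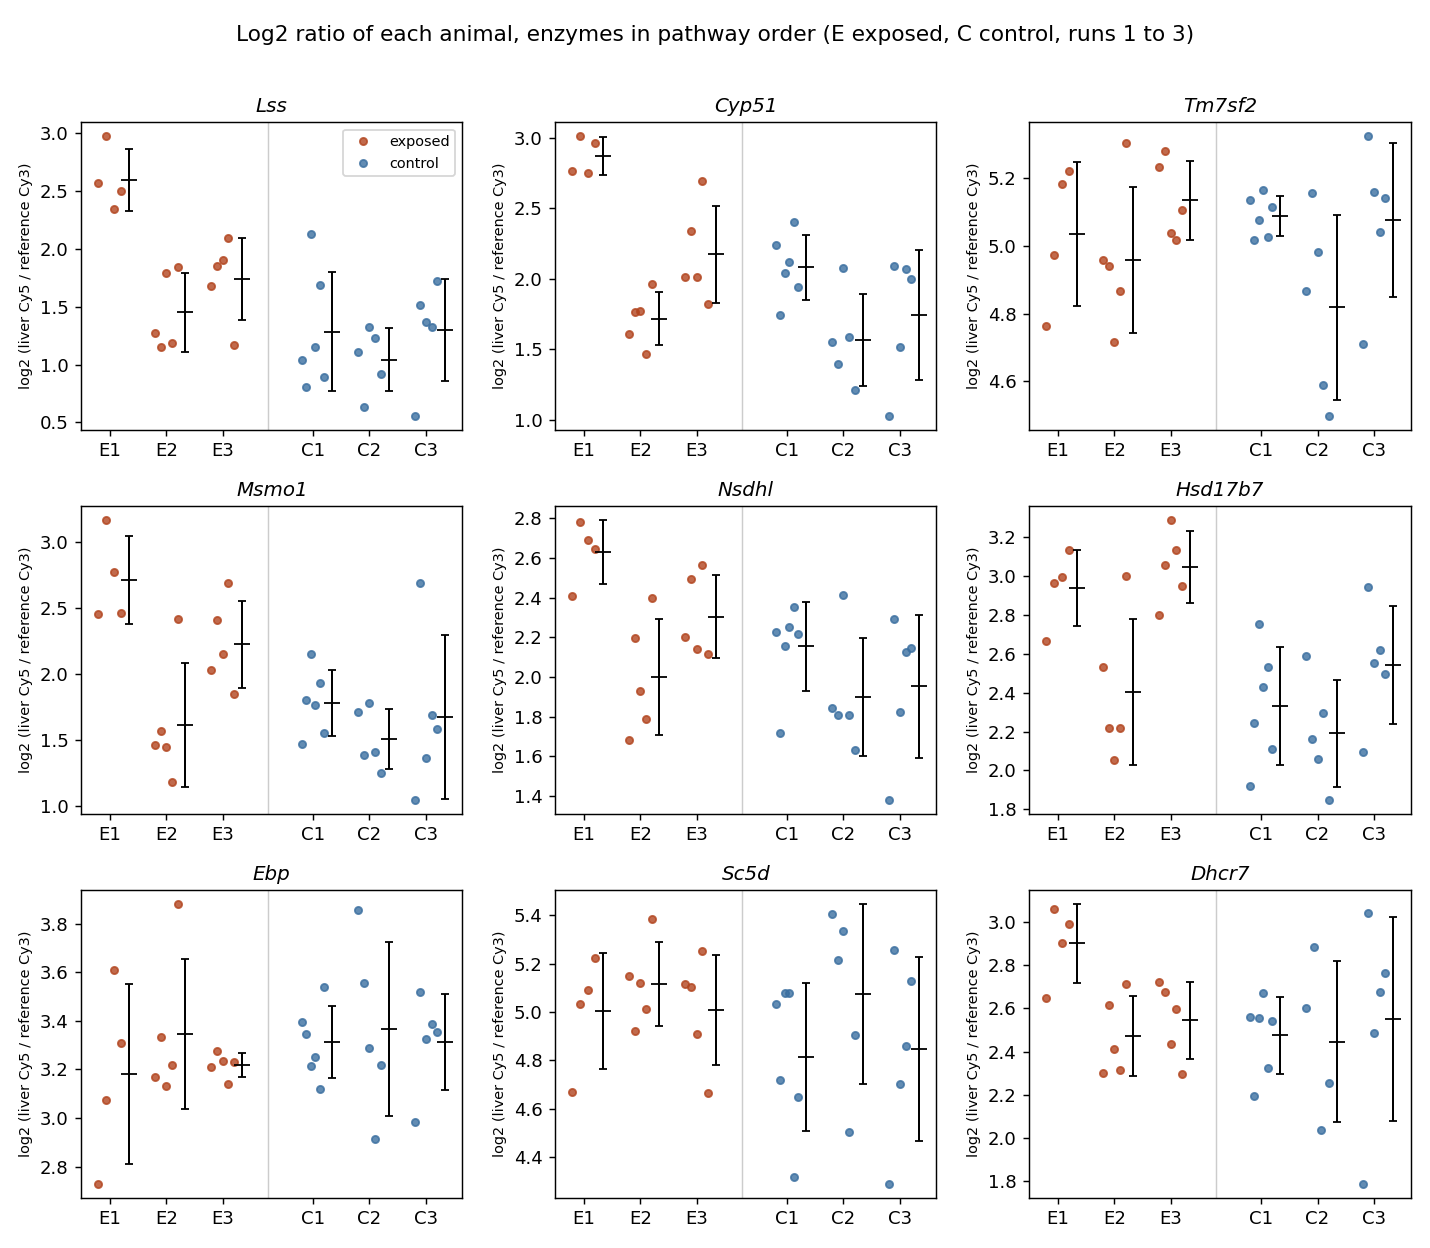
Log2 ratio of liver over reference RNA for each mouse (points) in exposed runs 1 to 3 (E1 to E3) and control runs 1 to 3 (C1 to C3), 1 panel per enzyme in pathway order, with run means and SD as black bars. The E1 points of Lss and Cyp51 lie above every other point, whereas those of Tm7sf2 and Sc5d lie within the control range and 1 of Ebp, at 2.73, lies below it.

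Lanosterol synthase, which makes the first ring sterol, had the largest difference of the 9 in exposed run 1. Lss stood at 2.57, 2.97, 2.34 and 2.50 in the 4 mice of exposed run 1. In exposed run 2 it stood at 1.27, 1.15, 1.79, 1.19 and 1.84, and in exposed run 3 at 1.68, 1.85, 1.90, 2.10 and 1.17. Over the 16 controls the lowest value was 0.56, the median 1.19 and the highest 2.13. All 4 mice of exposed run 1 were thus above every control and every other exposed mouse, and 0.275% of all probes lay above all controls in this way (0.834% above all other exposed mice). Against the control runs Lss was 1.37 ± 0.19 higher, a 2.59-fold change (limma adjusted p = 0.000122). Its other probe gave 1.29 ± 0.18. The control mice 549 and 551, at 2.13 and 1.69, were the highest of their run, whose SD was 0.52.

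Cyp51, the cytochrome P450 that removes the first methyl group from lanosterol, followed the same order of runs. Its values were 2.76, 3.01, 2.75 and 2.96 in exposed run 1, which had the narrow SD of 0.14. They were 1.61, 1.77, 1.77, 1.47 and 1.96 in exposed run 2 and 2.01, 2.34, 2.01, 2.69 and 1.82 in exposed run 3. The controls ran from 1.03 over a median of 1.97 to 2.40. In this brightest probe exposed run 1 again overlapped no other mouse, while exposed run 2 had 0 of 5 mice above the control median. In another Cyp51 probe mouse 215 of exposed run 3, at 2.84, stood above mouse 176 of exposed run 1, at 2.69. Mouse 197 of exposed run 2, at 2.69, stood above the control median of 2.06 there. The difference of exposed run 1 from the control runs was 1.07 ± 0.15, or 2.10-fold (limma adjusted p = 0.000122), and the other 2 probes gave 1.01 ± 0.18 and 1.07 ± 0.16. Against control run 1 alone, the control run with the highest mean of Cyp51 at 2.08 ± 0.23 (SD, n = 6), the difference was 0.78 ± 0.17 (limma adjusted p = 0.0404). Of the other 2 probes, 1 passed there (0.83, limma adjusted p = 0.0404) and 1 did not (0.90, 0.0603).

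Tm7sf2 encodes a reductase that acts on the ring double bond left by Cyp51, a reaction that Lbr can also carry out. It stood at 4.76, 4.97, 5.18 and 5.22 in exposed run 1, with means of 4.96 ± 0.22 in exposed run 2 and 5.13 ± 0.12 in exposed run 3 (SD, n = 5 each). The controls ran from 4.50 over a median of 5.06 to 5.32. The ranges overlapped throughout, and 13 of 16 controls were at or above the lowest mouse of exposed run 1. The difference of exposed run 1 was 0.04 with a 95% interval of -0.17 to 0.25 (limma adjusted p = 0.885). Whether it differed from those of Lss and Cyp51 was not tested. The sign of the Tm7sf2 difference turned against control run 1 alone, at -0.07. Lbr differed by 0.00 ± 0.09.

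The next 3 enzymes form the complex that takes the paired methyl groups off the sterol ring, and all 3 were higher in exposed run 1. Msmo1, the oxidase of the complex, stood at 2.45, 3.16, 2.77 and 2.46 in exposed run 1. It stood at 1.47, 1.56, 1.44, 1.18 and 2.41 in exposed run 2 and at 2.03, 2.41, 2.15, 2.68 and 1.85 in exposed run 3, against controls from 1.05 over a median of 1.64 to 2.69. Of the controls only mouse 596, with 2.69, reached the range of exposed run 1, and the second highest control stood at 2.15. The difference of exposed run 1 was 1.06 ± 0.19, or 2.08-fold (limma adjusted p = 0.00169).

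Nsdhl, the dehydrogenase that removes the oxidised carbon, stood at 2.41, 2.78, 2.69 and 2.64 in exposed run 1. Its means were 2.0 ± 0.29 in exposed run 2 and 2.30 ± 0.21 in exposed run 3 (SD, n = 5 each), and the controls ran from 1.38 over a median of 2.13 to 2.41. Of the 4 mice of exposed run 1, 3 were above every control. The difference was 0.63 ± 0.14, or 1.55-fold (limma adjusted p = 0.00705), and the other 2 probes gave 0.78 ± 0.15 and 0.79 ± 0.15.

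Hsd17b7, the ketosteroid reductase that closes each round of demethylation, was called higher in exposed runs 1 and 3 in the main fit. It stood at 2.67, 2.96, 2.99 and 3.13 in exposed run 1 and at 2.53, 2.22, 2.05, 2.22 and 3.0 in exposed run 2. In exposed run 3 it stood at 2.80, 3.06, 3.29, 3.13 and 2.95, against controls from 1.85 over a median of 2.36 to 2.94. By this brighter probe 3 of 4 mice of exposed run 1 were above every control, and in exposed run 3 it was 4 of 5. In the other probe mice 212 and 216 of exposed run 3, at 2.76 and 2.61, lay below the highest control, at 2.78. The difference of exposed run 1 was 0.59 ± 0.15, or 1.5-fold (limma adjusted p = 0.0202), with 0.65 ± 0.18 from the other probe. This difference did not pass with slide as a fixed block (0.60, limma adjusted p = 0.0764) or against control run 3 alone (0.41, 0.230). That of exposed run 3 was 0.67 ± 0.14, or 1.59-fold (limma adjusted p = 0.0432), with 0.73 ± 0.16 from the other probe (limma adjusted p = 0.0593). The call in exposed run 1 was lost when mouse 177, 179 or 180 was left out, with differences of 0.59, 0.56 and 0.51 (limma adjusted p from 0.0595 to 0.0945). The call in exposed run 3 was lost in 17 of the 30 fits that left out 1 mouse, with differences from 0.59 to 0.75 over all 30. These were the fits without control 547, 548, 550, 572, 575, 595, 598 or 599 and without exposed mouse 177, 179, 180, 194, 196, 212, 213, 214 or 215.

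The isomerase and the desaturase that follow were not called in any exposed run. Ebp, which shifts the ring double bond, stood at 2.73, 3.08, 3.61 and 3.31 in exposed run 1, against controls from 2.91 over a median of 3.34 to 3.86. Its exposed run 1 had the widest spread of the 3 exposed runs, an SD of 0.37 beside 0.31 in run 2 and 0.05 in run 3. The difference was -0.14 with a 95% interval of -0.41 to 0.13 (limma adjusted p = 0.634), and it turned to 0.15 with median centring of the arrays and to 0.02 without mouse 176. Sc5d, which adds a double bond, stood at 4.67, 5.03, 5.09 and 5.22 in exposed run 1, against controls from 4.29 over a median of 4.97 to 5.41. Its difference was 0.07 with a 95% interval of -0.23 to 0.36 (limma adjusted p = 0.862). For both genes the groups overlapped, with 16 and 12 of the 16 controls at or above the lowest mouse of exposed run 1.

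Dhcr7, the reductase that completes cholesterol and the enzyme missing in Smith-Lemli-Opitz syndrome, gave a mixed answer. It stood at 2.65, 3.06, 2.90 and 2.99 in exposed run 1, with means of 2.47 ± 0.18 and 2.54 ± 0.18 in exposed runs 2 and 3 (SD, n = 5 each). The controls ran from 1.79 over a median of 2.55 to 3.04, with 15 values, since the spot of control mouse 572 was marked as an outlier and is missing. All 4 mice of exposed run 1 were above the control median, and 1 was above every control. The brighter probe differed by 0.40 ± 0.14 (limma adjusted p = 0.101) and the other by 0.65 ± 0.14 (limma adjusted p = 0.00817), so the call depends on the probe. The brighter probe passed in the authors' deposited table of values, at 0.48 (limma adjusted p = 0.0156), and in 4 other settings, reaching 0.81 with median centring of the arrays.

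**Figure D2:**
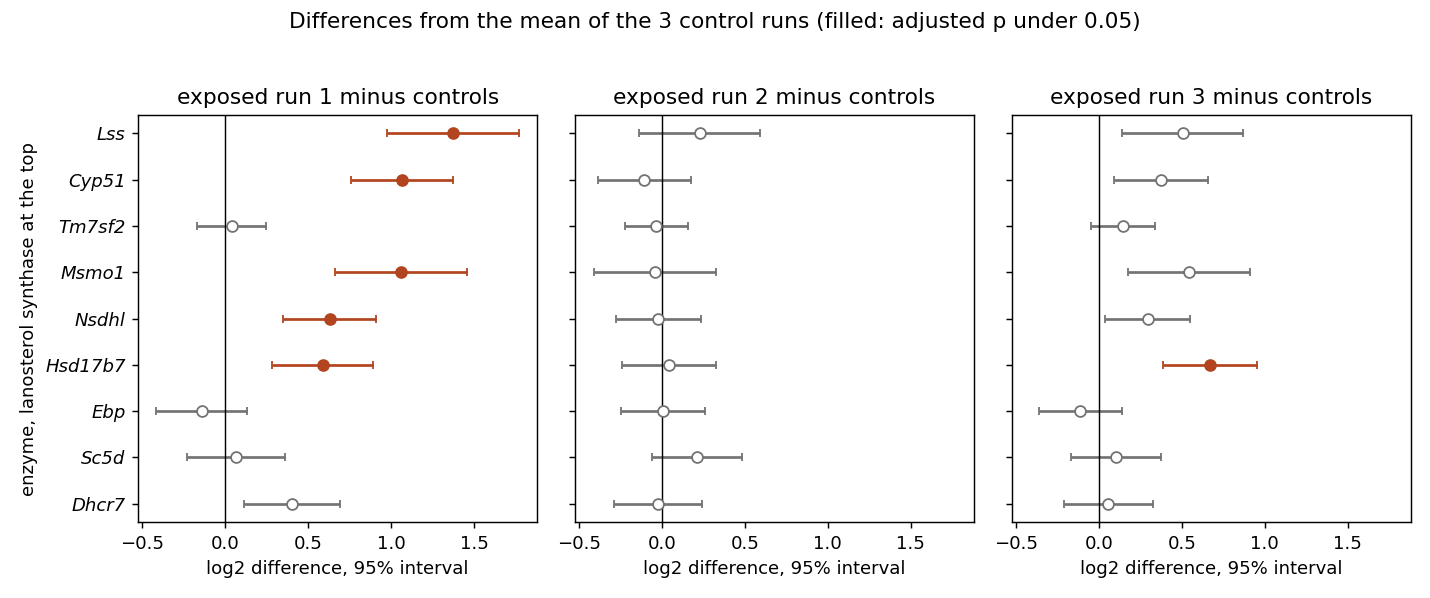
Difference of each exposed run from the mean of the 3 control runs in log2 units, with 95% intervals, for the 9 enzymes in pathway order from top to bottom. Filled symbols passed an adjusted p under 0.05, which 5 enzymes did in run 1, 0 in run 2 and Hsd17b7 in run 3.

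In exposed run 2, 0 of the 9 genes passed, with 0.0169% of all probes called, and 0 of the 9 had an unadjusted p under 0.05, against 10.3% of all probes. Their differences from the control runs lay between -0.11 and 0.23. In exposed run 3, Hsd17b7 passed, where 0.11% of all probes were higher. At an unadjusted p under 0.05, 5 of the 9 passed there, against 13.1% of all probes. These were the same 5 genes that were called higher in exposed run 1. The other 8 differences of exposed run 3 lay between -0.11 for Ebp and 0.54 for Msmo1, and 8 of the 9 were above 0, with a median of 0.29 beside 0.01 over all probes.

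Within the exposed mice, run 1 was also set against runs 2 and 3. Lss was 1.01 ± 0.21 higher (limma adjusted p = 0.00398), Cyp51 0.93 ± 0.16 (0.000971), Msmo1 0.81 ± 0.21 (0.0182) and Nsdhl 0.49 ± 0.15 (0.0377), so 4 of the 9 were higher, where 1.8% of all probes were. Higher probes were 27.2% of these calls, and 68.7% with median centring, where 5 of the 9 were higher. Dhcr7 at 0.38 ± 0.15 and Hsd17b7 at 0.23 ± 0.16 did not pass. Without mouse 177 the calls of Msmo1 (0.67, limma adjusted p = 0.0871) and Nsdhl (0.45, 0.113) were lost. Leaving out mouse 179, 180, 193, 195, 196, 212, 214 or 216 also lost the call of Nsdhl, which then stood between 0.43 and 0.50. With the place in the position pair as an added term all 4 calls were lost, although the differences of Lss and Cyp51 were 1.05 and 0.86. Among the 3 exposed runs the moderated F test passed for Lss (limma adjusted p = 0.0108), Cyp51 (0.00157) and Msmo1 (0.0184), with 4.13% of all probes passing. Nsdhl and Hsd17b7 both stood at an adjusted p of 0.0522. The other probes of Nsdhl passed this F test (limma adjusted p = 0.0191 and 0.0143), and that of Hsd17b7 did not (0.147).

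Between the control runs no member was called. Among these runs 0 of the 9 passed the F test, where 0.089% of all probes did, and 2 of the 9 had an unadjusted p under 0.05, against 7.03% of all probes. Control run 1 minus control runs 2 and 3 gave 0 of the 9, with 0.0424% of all probes called, and the widest difference was that of Cyp51, 0.43 ± 0.14 (limma adjusted p = 0.429). Whether the run 1 difference of the exposed mice exceeded that of the controls was tested directly. It passed for 0 of the 9 and for 0% of all probes, with an unadjusted p under 0.05 for 4 of the 9 and 10.2% of all probes. The estimate of Lss was 0.91 ± 0.27 (limma adjusted p = 0.353) and that of Cyp51 0.51 ± 0.21 (limma adjusted p = 0.418). Against control run 1 alone, Lss (1.31 ± 0.22, limma adjusted p = 0.0119) and Cyp51 passed, at a background of 0.246%, and Msmo1 (0.92, 0.0728), Hsd17b7 (0.60, 0.149) and Nsdhl (0.47, 0.218) did not. With the place in the position pair as an added term, Lss (1.41), Cyp51 (1.02) and Msmo1 (0.96) passed in exposed run 1, at a background of 1.22%, and Nsdhl (0.53, limma adjusted p = 0.116) and Hsd17b7 (0.49, 0.202) did not.

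Each mouse of exposed run 1 shared its slide with a mouse of control run 1 in the same place of the pair, which gives 4 pairs measured side by side. Lss was higher in the exposed mouse in 4 of 4 pairs, by 0.84 to 1.54. Cyp51 (0.64 to 1.01), Msmo1 (0.68 to 1.01), Nsdhl (0.15 to 0.97) and Hsd17b7 (0.21 to 1.21) were higher in 4 of 4 pairs as well. Dhcr7 was higher in 3 of 4, Tm7sf2 and Sc5d in 2 of 4 and Ebp in 1 of 4. Over the 7 slides with both groups and all runs, the exposed mean of Lss was higher on 5, with a median difference of 0.70. Cyp51 (median 0.24), Hsd17b7 (0.19) and Sc5d (0.10) were higher on 6, Msmo1 (0.34) and Tm7sf2 (0.04) on 5, Nsdhl (0.25) and Dhcr7 (0.03) on 4 and Ebp (-0.10) on 3.

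**Figure D3:**
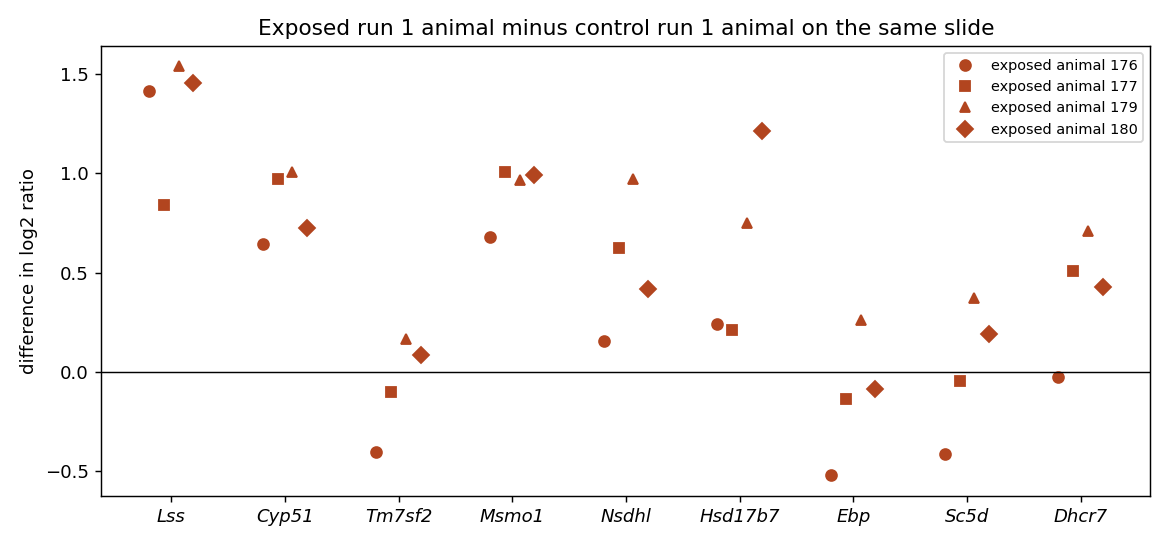
Difference in log2 ratio between each exposed run 1 mouse and the control run 1 mouse on the same slide, for the 9 enzymes in pathway order, with 1 symbol per exposed mouse. Lss, Cyp51, Msmo1, Nsdhl and Hsd17b7 lie above 0 in 4 of 4 pairs, and Ebp in 1 of 4.

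The steps before and beside these enzymes were read from lists of pathway genes. Of the 8 enzymes from acetyl units to squalene epoxide that are described here, 6 passed as higher in exposed run 1 and 0 as lower. Over all probes 1.6% were higher and 3.19% lower in that comparison. The median difference of the 8 was 0.80. Mevalonate kinase Mvk averaged 1.78 ± 0.33 in exposed run 1, 0.85 ± 0.21 in exposed run 2, 1.14 ± 0.27 in exposed run 3 and 0.75 ± 0.32 in controls (SD), and it rose by 1.03 ± 0.14 in run 1 (limma adjusted p = 0.000122). The farnesyl diphosphate synthase Fdps rose by 0.79 ± 0.13 and the squalene synthase Fdft1 by 0.75 ± 0.15, with limma adjusted p of 0.00418 or less. Of 12 genes of SREBP regulation and sterol uptake 10 were measured. Their differences in exposed run 1 ran from -0.48 to 0.67 with a median of 0.10, and 6 of the 10 were above 0. Of the 10, 0 passed as lower and 1 as higher, Srebf2, which encodes SREBP-2. It averaged 0.17 ± 0.16 in exposed run 1 and -0.43 ± 0.25 in controls (SD, n = 4 and 16) and differed by 0.59 ± 0.11 (limma adjusted p = 0.00214). Against control run 1 alone, Srebf2 (0.54, limma adjusted p = 0.0604) and Fdft1 (0.69, 0.0846) did not pass. Over all exposed mice 0 of these genes passed, where 0.0169% of all probes did. There the smallest p belonged to Mvk (0.46) and Fdps (0.37) before lanosterol and to Srebf2 (0.23) and Stard4 (0.22) in regulation, and among other sterol steps Dhdds differed by 0.07 and Lbr by -0.04.

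**Figure D4:**
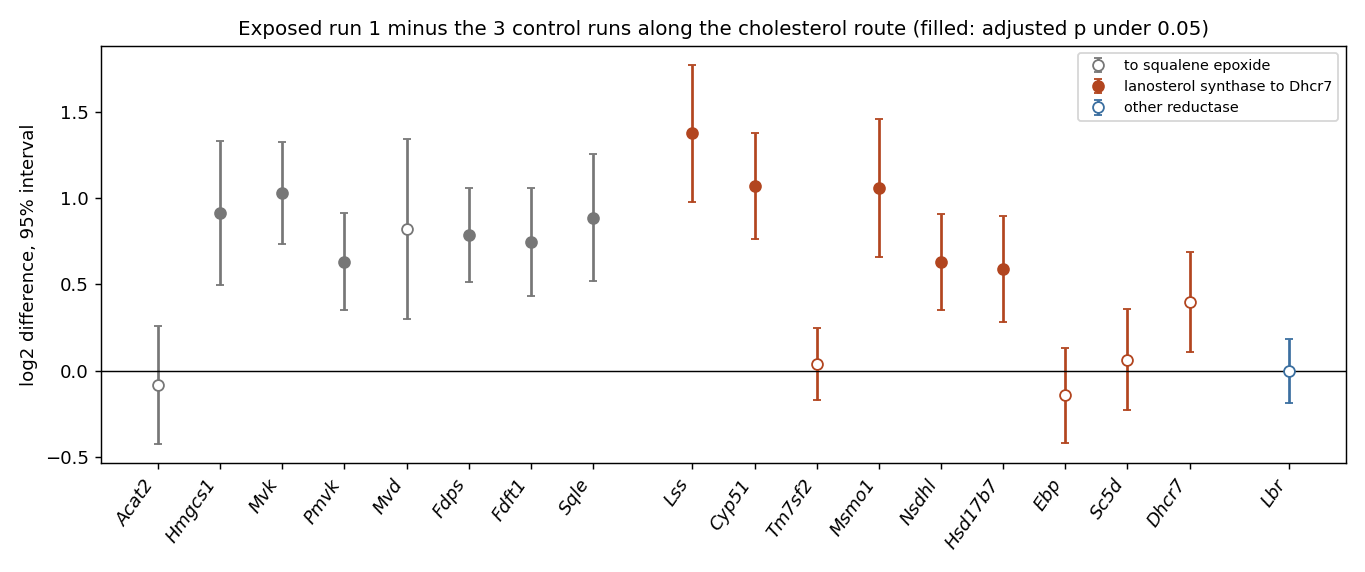
Difference of exposed run 1 from the mean of the 3 control runs in log2 units, with 95% intervals, along the cholesterol route from Acat2 to Sqle (grey), from Lss to Dhcr7 (red) and for the reductase Lbr (blue). Filled symbols passed an adjusted p under 0.05, with 6 of 8 grey and 5 of 9 red genes among them. The intervals of Acat2, Tm7sf2, Ebp, Sc5d and Lbr include 0.

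Across all 30 mice, Msmo1 and Nsdhl followed the mean of the other 8 members most closely, with r of 0.90 and 0.89. Cyp51 (0.83), Dhcr7 (0.82, 29 mice), Lss (0.76) and Hsd17b7 (0.73) came next, then Tm7sf2 (0.55) and Sc5d (0.42), and Ebp was lowest at 0.11. The genes outside the 9 whose values were close to their mean included Fdft1 (r = 0.92), Hmgcs1 (0.92), Fdps (0.90) and Mvk (0.89). These correlations describe arrays that share slides and runs, and the mice of exposed run 1 enter them.

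Within the 16 controls alone, Lss was set against the other 8 members. Hsd17b7 had a Pearson r of 0.68 (permutation p = 0.00387) and a Spearman rho of 0.65 (permutation p = 0.00757). Cyp51, Msmo1 and Nsdhl had r of 0.62, 0.61 and 0.61 and rho of 0.54, 0.56 and 0.57, and all 4 genes stood at a permutation p of 0.0235 for r after adjustment over the 8 relations. For rho 0 of the 8 passed after adjustment, with the smallest adjusted permutation p at 0.0606. Dhcr7 had r of 0.51 over 15 mice, Tm7sf2 0.32, Sc5d 0.18 and Ebp -0.11. Without the 2 controls farthest from the median of Lss, r was 0.61 for Hsd17b7, 0.55 for Cyp51, 0.54 for Nsdhl and 0.43 for Msmo1, and 0 of 8 passed (smallest adjusted permutation p = 0.12), so the calls, though not the sign of these 4 correlations, rest on including those mice. With the mean of each run taken off, r was 0.68, 0.64, 0.61 and 0.59 for Hsd17b7, Cyp51, Nsdhl and Msmo1 and all 4 passed. Between the 2 controls of a slide, r over 8 slides was 0.83 for Hsd17b7 and 0.81 for Msmo1 (exact permutation, adjusted p = 0.047 for both) and 0.66 for Cyp51 and for Nsdhl, which did not pass.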

How the data were processed

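Liver RNA of 14 exposed and 16 control mice was measured on 2-colour Agilent arrays, and the deposited scanner files hold intensity values per spot in both dyes, which the authors read with Agilent Feature Extraction 10.7.3.1 (25 arrays) or 10.1.1.1 (5 arrays), per the file headers. The deposited files also carry a log10 ratio per spot, which was not used for results. The deposited table of values holds log2 ratios of Cy5 over Cy3 made by the authors, by steps not given in the sources used here. Each of its 30 columns matched its own array best (r from 0.996 to 0.999 over 14522 probes), and its column medians of -0.044 to -0.019 leave the centring not exactly known.

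From the median signals, background was corrected by normexp (offset 50), each array was normalised by loess with control spots at weight 0, outlier spots were set to missing and spots of a probe were averaged (limma 3.58.1 in R 4.3.3). Tested were probes whose Cy5 exceeded background on 14 or more of 30 arrays, and 24375 of 41174 probes received a symbol through their transcript in a RefSeq table of GRCm38.p6. Slide was a random block (correlation 0.159 in the fit of groups and 0.147 in the fit of 6 run means). Tests were two-sided moderated tests of limma, adjusted by Benjamini-Hochberg over all 23607 probes with a threshold of 0.05, and correlations were tested by permutation (100000 resamples, exact within slides). Errors of differences are standard errors, errors of means are SD, and precision is limited by how many arrays there are. The fit was tested on simulated data.

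A gap of more than 10 in the animal numbers starts a new run. Named are all 9 members with every probe, up to 4 genes past the threshold of each pathway list by smallest p (otherwise the 2 with the smallest p), and the 5 other genes most like the members' mean, of which some genes are not reported here and are left out of the count of enzymes before lanosterol. The members, the lists and the run comparisons were chosen with earlier results of these data known. Alternatives covered background correction, normalisation, the filter, the block, array position, array weights, software version, control run, probe and each mouse left out.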

Additional observations from a re-analysis of the deposited data

Results flagged for a closer look

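Within the runs, 54 groups of 4 to 6 mice (9 genes in 6 runs) were examined for a single mouse far from the rest, of which chance marks about 1 in 20 groups, and 3 were found. Ebp stood at 3.88 in exposed mouse 197, while the other 4 mice of exposed run 2 lay between 3.13 and 3.33. Nsdhl stood at 1.72 in control mouse 548, below the 2.16 to 2.35 of the other mice of control run 1. It stood at 2.41 in control mouse 573, above the 1.63 to 1.85 of the other mice of control run 2.

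Exposed run 1 was higher than exposed runs 2 and 3 for 4 genes, by the test between the exposed runs, into which no control enters. The direct test of this difference against that of control run 1 passed for 0 of the 9. All 4 calls were lost with the place in the position pair as an added term. The excess was 1.01 for Lss, 0.93 for Cyp51, 0.81 for Msmo1 and 0.49 for Nsdhl. What distinguishes the runs was not tested, since the labels do not describe them.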

How the results depend on the processing

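In exposed run 1 the count of 5 higher members lay between 4 and 6 under the other settings, except that it was 2 against control run 1 alone and 3 with the place in the position pair as an added term. Lss and Cyp51 passed there in all settings. Leaving out each mouse gave 4 to 5. Within the exposed mice the 4 higher members became 0 with the place as an added term and 2 to 4 with each mouse left out. The 3 members that differed among the exposed runs became 5 with array weights, median centring, no background correction or the processed signals, 6 in the deposited table, 1 with slide as a fixed block or the place as an added term, and 1 to 5 with each mouse left out (1 without exposed mouse 177). Over all exposed mice 0 members became 3 in the fit of run means with equal weight for the runs. The single member of exposed run 3 became 0 against control run 1 or 3 alone and in 9 further settings, and 0 to 1 with each mouse left out. The 4 correlations with Lss became 2 between controls of a slide and 0 without the 2 farthest controls, where that of Sc5d was -0.11.

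Small differences of exposed run 1 changed sign. Ebp was 0.15 with median centring and 0.08 with the processed signals, Sc5d -0.10 against control run 2 alone, and Tm7sf2 -0.07 against control run 1 alone and with the place as an added term and -0.04 against control run 3 alone. Over all exposed mice Lbr was 0.00 with median centring. With each mouse left out Ebp ran from -0.29 to 0.02, Sc5d from 0.00 to 0.19 and Tm7sf2 from -0.03 to 0.14. Over all probes, 1132 calls in exposed run 1 became 1983 with the processed signals, 1789 without background correction, 427 with slide as a fixed block, 288 with the place term, 174 with median centring, 58 against control run 1 alone and 480 to 1412 with each mouse left out. The 1560 calls within the exposed mice became 53 to 1845 across the settings and 524 to 1816 with each mouse left out, and the 976 of the F test among the exposed runs 125 to 1572 and 419 to 1177. Calls over all exposed mice (4) ran from 0 to 166, those of exposed run 2 (4) from 0 to 153 and those of exposed run 3 (31) from 0 to 554. The cause of these changes was not tested. Pairing by replicate number was not possible, since exposed and control mice share none. Slide, which held both groups on 7 of 9 slides, entered as a random or fixed block. Exposed run 1 holds 4 mice, all first in their position pair, which limits how far run and place can be told apart.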
